A study of Homo sapiens with 8 samples.

Results

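The 8 genes described here were NCOA5, MBTD1 and ZNF804A, whose products act in the nucleus, TRAK2 and YAE1D1, which act in the cytoplasm, the membrane proteins TAS1R3 and TMEM88, and the noncoding RNA MIR503HG. Besides RB1 itself, they had the largest rises in cells carrying the retinoblastoma protein pRB relative to cells without it, among genes that passed the test with no overlap between the states and were not small RNA or LOC genes. They are 8 of 25337 named genes in the deposited table and 8 of the 12013 with a mean of at least 1 FPKM (fragments mapped to a gene, divided by its length and by the library's mapped fragments) after rescaling of the libraries. They were chosen on the difference between 4 pRB+ and 4 pRB- libraries, so that difference is described below without a test, and tests are given only for the inhibitor and for genes outside the set. All 8 passed the filter on low values. ZNF804A and TMEM88 passed it through their pRB+ libraries, since their pRB- means were 0.751 and 0.959 scaled FPKM.

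RNA came from NCI-H82, an established small cell lung cancer line, carrying RB1 in the doxycycline-inducible vector pTripZ in every group. Cells grown with 0.5 µg/mL doxycycline for 96 h were labelled pRB+ and cells grown without it pRB-. Each state was left without inhibitor (control, with DMSO named as the vehicle) or given 32 nM AZD2811, which blocks Aurora B, a kinase of mitosis, for the last 48 h, which makes 4 groups of 2 libraries. The sample titles call the inhibitor AZD1152, the prodrug of which AZD2811 is the active form. Doxycycline was given to all pRB+ cells and to no pRB- cells, so its own effect and that of pRB cannot be told apart, and the labels do not say whether the line is 1 clone.

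pRB is a chromatin-bound repressor. In its unphosphorylated form it binds E2F transcription factors at promoters of cell cycle and DNA replication genes and holds them down until cyclin-dependent kinases release it. Small cell lung cancers commonly lose RB1, so its return to such a line is a test of which transcripts respond. Genes that are higher with pRB are less studied than those it represses, and the 8 genes belong to no common pathway. They encode a nuclear receptor coregulator, a chromatin reader, a zinc finger protein, an adaptor of mitochondrial transport, an adaptor of iron-sulfur protein assembly, a taste receptor subunit, an inhibitor of Wnt signalling and a long noncoding RNA.

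RB1 itself lay between 0.801 and 0.950 scaled FPKM in the 4 pRB- libraries and between 6.36 and 7.67 in the 4 pRB+ libraries, as the labels say. There were 7 neuroendocrine or MYC markers of this tumour type, which stood at 11.0 to 428 scaled FPKM in every library, and 6 markers of other cell types, which stood at 0 to 0.337. Depth is not given in the table; steps in the low values of 1523 genes put it at 23150000 to 33800000 mapped fragments per library. The first AZD2811 library of each pRB state and the second pRB+ control, 3 in all, were rich in RNA without poly(A) tails. RMRP, the RNA of ribonuclease MRP, stood there at 5792 to 14003 scaled FPKM, against 21.2 to 165 in the other 5, and their scaling factors were 0.455 to 0.771 against 1.28 to 1.33. The values of the members without those libraries stand beside the pRB and AZD2811 results.

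MIR503HG is the one noncoding RNA in the set, and it is the host of a microRNA, so its locus is shown first. It lies on chromosome X, and the RefSeq annotation has the hairpin genes of miR-503 and miR-424 overlap it. The mature sequences (RefSeq, GRCh38.p14, both on the minus strand) are printed with the seed, bases 2 to 8, in capitals, because the seed sets which transcripts a microRNA binds. miR-503-5p lies at chrX:134546371-134546393, inside MIR503HG, and miR-424-5p at chrX:134546680-134546701, before its first base.
hsa-miR-503-5p: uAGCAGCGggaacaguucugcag
hsa-miR-424-5p: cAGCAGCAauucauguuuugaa
The seeds share 6 of 7 positions, and both belong to the wider family of the miR-16 seed, known for acting on cyclins and other cell cycle transcripts.

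The window around the start of MIR503HG, 250 bases before to 50 after it, is printed because it holds both the mature miR-424-5p and the only promoter matches in the set to the cell cycle homology region (CHR, TTTGAA). It spans chrX:134546581-134546880 on the minus strand in GRCh38.p14, with the 2 matches, one on each strand, in capitals.
MIR503HG: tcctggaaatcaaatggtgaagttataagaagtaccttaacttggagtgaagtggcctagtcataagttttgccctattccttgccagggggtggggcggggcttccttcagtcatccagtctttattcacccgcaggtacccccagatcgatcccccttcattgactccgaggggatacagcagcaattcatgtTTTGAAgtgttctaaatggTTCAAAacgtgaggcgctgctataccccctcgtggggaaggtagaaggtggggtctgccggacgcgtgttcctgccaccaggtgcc
The first match, at bases 196 to 201 of the window, lies within the letters of miR-424-5p (bases 180 to 201). The second occupies bases 215 to 220.

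MIR503HG measured 0.995 and 1.42 scaled FPKM in the pRB- controls and 2.37 and 2.60 in the pRB- AZD2811 libraries (replicates 1 and 2 in each pair). In pRB+ cells it measured 5.84 and 3.55 in the controls and 5.94 and 3.07 with AZD2811. The 4 pRB+ values all lay above the 4 pRB- values, but by the narrowest margin in the set: the lowest pRB+ library was 1.18 times the highest pRB- library. The group means were 4.60 ± 1.50 and 1.85 ± 0.764 (SD, n = 4 each), a ratio of 2.49. Both replicate 1 libraries were high in pRB+ cells and both replicate 2 libraries low. The transcript is short, and about 16 to 133 fragments per library stood behind these values, a counting error of up to 25.4%.

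The microRNAs of the locus could not be followed in these libraries. MIR503, MIR424, MIR542, MIR450A1 and MIR450B were listed at 0 in all 8, and MIR450A2 was above 0 in a single library, pRB+ control replicate 1, at 24.8 scaled FPKM. Hairpin genes are shorter than the fragments such libraries hold, so a listed 0 is no measure of the mature microRNA. Among 9 tested genes of the cluster and of cell cycle genes known as targets of that seed family, 1 rose and 3 fell with pRB at an adjusted p under 0.05 (limma, additive fit over 8 libraries). Over all genes tested 5.34% were called higher and 5.81% lower. The median log2 difference of the 9 was -0.07 against -0.01 over all genes tested. CHEK1, the checkpoint kinase, fell from 19.0 ± 2.03 to 13.8 ± 0.801 scaled FPKM (log2 difference -0.43 ± 0.06 SE, adjusted p = 0.0238). CDC25A, a phosphatase that activates cyclin-dependent kinases, and CCND3, cyclin D3, also fell, by 0.32 and 0.20 on the log2 scale. E2F3, a member of the E2F family, rose from 16.6 ± 1.70 to 23.3 ± 1.76 (0.47 ± 0.08, adjusted p = 0.0258). CCND1, cyclin D1, was near 0 in both states, at means of 0.0480 with pRB and 0.0363 without it.

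Of the 8 genes, 3 act in the nucleus. NCOA5 encodes a coregulator that binds nuclear receptors such as the estrogen receptors, and it had the largest log2 difference of the 8. It measured 1.17 and 2.21 scaled FPKM in the pRB- controls, 2.06 and 3.49 in pRB- cells with AZD2811, 7.13 and 5.33 in the pRB+ controls and 7.74 and 5.92 in pRB+ cells with AZD2811. All pRB+ libraries were above all pRB- libraries, and pRB- control replicate 1 stood lowest. The means were 6.53 ± 1.11 and 2.23 ± 0.956 (SD, n = 4), a ratio of 2.92 and a log2 difference of 1.26 ± 0.19 (SE).

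MBTD1 encodes a protein with MBT repeats, which bind methylated histone lysines, and is a subunit of the NuA4/TIP60 acetyltransferase complex. It measured 2.42 and 3.66 scaled FPKM in the pRB- controls, 3.01 and 4.35 in pRB- cells with AZD2811, 7.76 and 6.53 in the pRB+ controls and 7.96 and 6.88 in pRB+ cells with AZD2811. The pRB+ libraries were the most even of any member, with the highest 1.22 times the lowest, and none reached down to the pRB- range. Its means were 7.28 ± 0.689 and 3.36 ± 0.832, a ratio of 2.17.

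ZNF804A encodes a zinc finger protein known mostly as a gene associated with psychiatric illness, and it was the least abundant of the 8. It measured 0.313 and 0.581 scaled FPKM in the pRB- controls, 0.825 and 1.28 in pRB- cells with AZD2811, 2.59 and 1.69 in the pRB+ controls and 2.69 and 2.48 in pRB+ cells with AZD2811. The states did not overlap, but the pRB- values spread over a range of 4.10 times, the widest in the set, and all lay near or below 1 FPKM. The means were 2.36 ± 0.457 and 0.751 ± 0.413, a ratio of 3.15, the largest of the 8 on the linear scale; on the log2 scale with 1 FPKM added it was 0.96 ± 0.14, since that scale understates changes of low genes.

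A further pair work in the cytoplasm. TRAK2 encodes an adaptor that ties mitochondria to kinesin motors on microtubules. It measured 2.32 and 3.11 scaled FPKM in the pRB- controls, 3.48 and 4.30 in pRB- cells with AZD2811, 7.45 and 6.28 in the pRB+ controls and 9.18 and 6.64 in pRB+ cells with AZD2811. Every pRB+ library was above every pRB- library, and this was the best covered member, with about 257 to 1916 fragments per library. Its means were 7.39 ± 1.29 and 3.30 ± 0.822, a ratio of 2.24.

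YAE1D1, now named YAE1, encodes a protein that, with LTO1, brings the ribosome recycling factor ABCE1 to the cytosolic machinery that inserts iron-sulfur clusters. It was the most abundant of the 8, at 5.69 and 6.92 scaled FPKM in the pRB- controls, 7.27 and 8.18 in pRB- cells with AZD2811, 15.9 and 12.6 in the pRB+ controls and 18.6 and 13.6 in pRB+ cells with AZD2811. The lowest pRB+ library was 1.54 times the highest pRB- library. Means were 15.2 ± 2.67 and 7.01 ± 1.03, a ratio of 2.16.

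The last pair encode membrane proteins of signalling. TAS1R3 encodes the subunit shared by the sweet and umami taste receptors. It measured 1.85 and 1.94 scaled FPKM in the pRB- controls, 2.41 and 2.60 in pRB- cells with AZD2811, 7.08 and 3.83 in the pRB+ controls and 6.90 and 4.34 in pRB+ cells with AZD2811. The pRB- libraries were close together, while in pRB+ cells both replicate 1 libraries stood well above both replicate 2 libraries. The means were 5.54 ± 1.69 and 2.20 ± 0.362, a ratio of 2.52.

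TMEM88 encodes a membrane protein that binds Dishevelled and inhibits Wnt signalling. It measured 0.714 and 1.00 scaled FPKM in the pRB- controls, 0.773 and 1.35 in pRB- cells with AZD2811, 2.52 and 2.10 in the pRB+ controls and 4.13 and 2.54 in pRB+ cells with AZD2811. The states did not overlap, and pRB+ AZD2811 replicate 1 stood highest. The means were 2.82 ± 0.894 and 0.959 ± 0.287, a ratio of 2.94. It rested on the fewest fragments, about 6 to 69 per library, with a counting error of up to 40.5%.

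**Figure D1:**
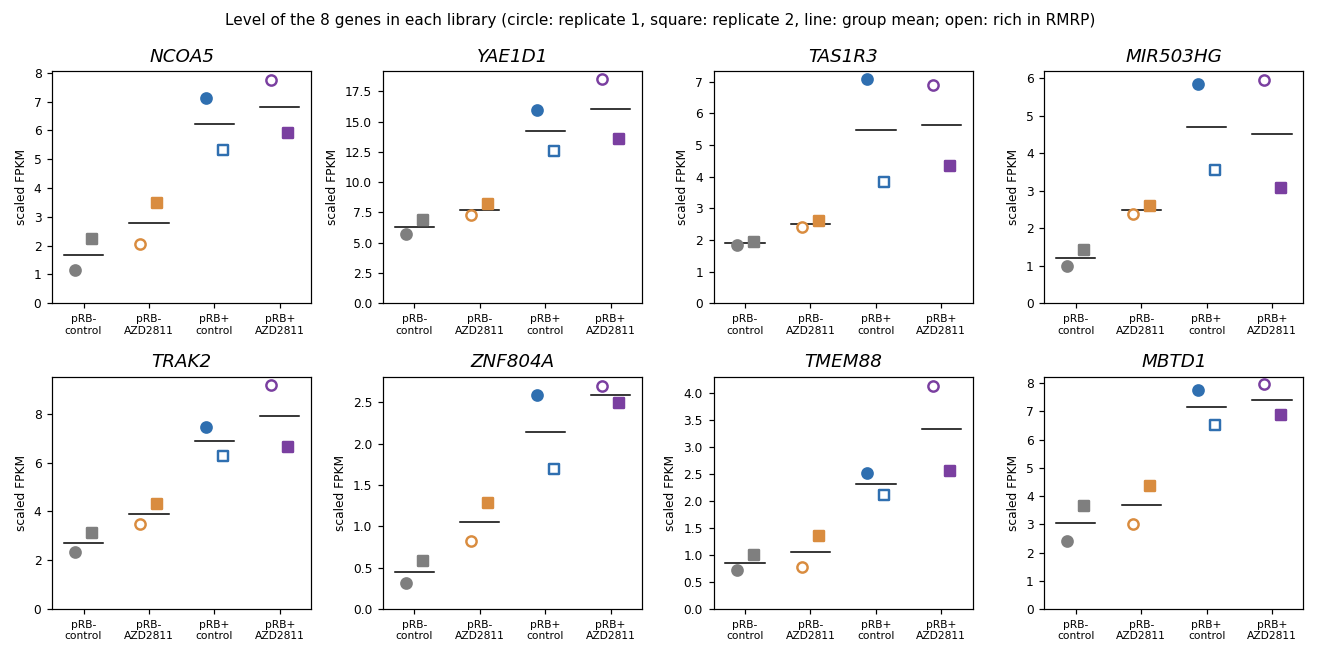
Scaled FPKM of each of the 8 genes in every library, by pRB state and treatment (circles, replicate 1; squares, replicate 2; lines, means of 2 libraries; open symbols, the 3 libraries rich in RMRP). For each gene the 4 pRB+ libraries lie above the 4 pRB- libraries, with the narrowest gap for MIR503HG, where the lowest pRB+ value is 1.18 times the highest pRB- value.

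Among all genes tested, 642 of 12013 (5.34%) were called higher and 698 (5.81%) lower in pRB+ cells at an adjusted p under 0.05, and in 1280 (10.7%) all 4 pRB+ libraries lay above all 4 pRB- libraries. The 8 genes had to meet both of these, so nothing is read from their count. The number called higher depended on single libraries: it was 1 or 2 without either pRB- control or without the first pRB- AZD2811, pRB+ control or pRB+ AZD2811 library, 220 without pRB+ control replicate 2, and 0 in the 5 libraries low in RMRP. Every call of a single gene in the pRB comparison carries that limit. The log2 differences of the 8 ran from 1.26 for NCOA5 to 0.94 for MBTD1, against 2.12 ± 0.07 for RB1. Just outside came SYN2 at 0.90, SFPQ and PCF11 at 0.87 and ZNF594 at 0.85, so no gap separates the set from the genes that follow. The list of rises that could have been chosen held 608 genes. A further 121 genes had differences at least as large but were small RNA genes (108 of them) or did not pass the test, the latter mainly histone genes.

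**Figure D2:**
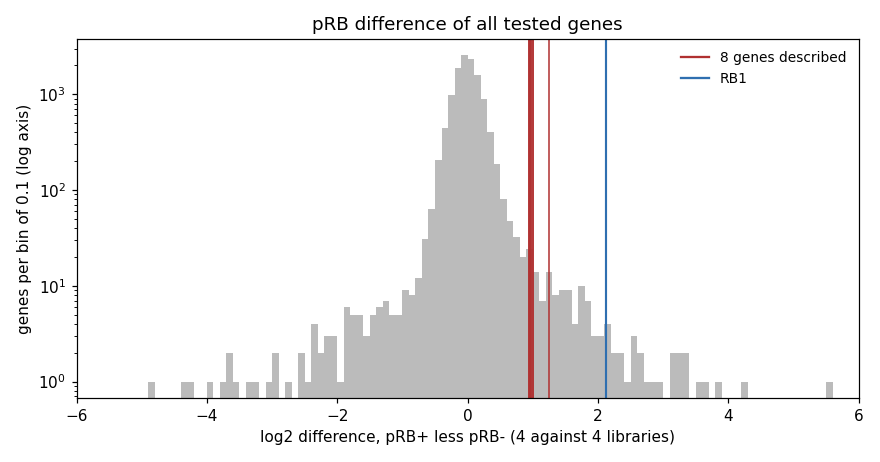
Histogram of the log2 difference between pRB+ and pRB- libraries for the 12013 genes tested (4 against 4 libraries; log axis of genes per bin), with lines at the 8 genes and at RB1. The 8 genes lie at 0.94 to 1.26 and RB1 at 2.12, and the genes beyond them on the right are mostly small RNA genes.

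The 8 genes moved from library to library in nearly the same order. Within pRB- cells, control replicate 1 was the lowest library for 8 of 8 and AZD2811 replicate 2 the highest for 8 of 8; over all genes tested those libraries were lowest in 21.2% and highest in 24.7%. Within pRB+ cells, control replicate 2 was the lowest for 7 of 8, against 28.5% of all genes, with MIR503HG lowest in AZD2811 replicate 2. AZD2811 replicate 1 was the highest for 7 of 8, against 27.4%, with TAS1R3 highest in control replicate 1. The lowest and the highest pRB+ libraries are both among the 3 rich in RMRP, while the lowest and the highest pRB- libraries are not.

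The size of the difference also varied with the replicate number in the labels. Between libraries numbered 1 the pRB+ to pRB- ratios of the 8 genes ran from 2.66 for YAE1D1 to 4.64 for ZNF804A, and between libraries numbered 2 from 1.65 for MIR503HG to 2.24 for ZNF804A. NCOA5, for example, differed 4.60-fold and 1.97-fold. The median log2 difference of the 8 was 1.29 in number 1 and 0.66 in number 2, with all 8 larger in number 1. RB1 differed by 2.16 and 2.08 in the same libraries. The 632 other rises called, outside RB1, the 8 genes and small RNA genes, had medians of 0.46 and 0.25, and 94.6% of them were larger in number 1, so the 8 genes share this with nearly all called rises.

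**Figure D3:**
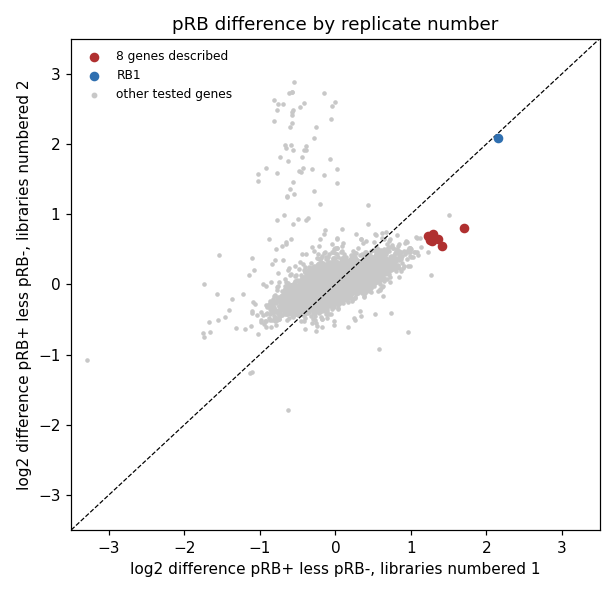
Log2 difference between pRB+ and pRB- cells in libraries numbered 2 against that in libraries numbered 1, for the 8 genes, RB1 and the other genes tested outside the small RNA genes (dashed line, equal differences). RB1 lies near the line at 2.16 and 2.08, while all 8 genes lie below it.

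Among the 5 libraries low in RMRP, the ratios of the 8 genes ran from 2.11 for MBTD1 to 3.49 for ZNF804A. NCOA5 stood at 2.85, MIR503HG at 2.66 and TMEM88 at 2.48, against 2.94 for TMEM88 over all 8 libraries. These libraries are among those that chose the members, so a higher level with pRB was fixed there and says nothing of stability. Taken apart by treatment, the ratio in controls was 4.79 for ZNF804A, 3.88 for MIR503HG and 3.68 for NCOA5, and with AZD2811 2.45, 1.81 and 2.46. TMEM88 had the opposite order, 2.69 in controls and 3.15 with AZD2811.

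Treatment with AZD2811 asks whether these transcripts follow the inhibitor as well as pRB. No member passed the test in either state. In pRB- cells the log2 differences between AZD2811 and control ran from 0.14 for TMEM88 to 0.66 for MIR503HG, with a median of 0.34 and 8 of 8 above 0, against a median of -0.01 and 46.2% above 0 over all genes tested. Every adjusted p was 0.992 (limma, fit of 4 group means). Over all genes 4 of 12013 were called (0.0333%), all of them small RNA genes that fell, and 323 had an unadjusted p under 0.05, fewer than the 601 that chance gives. In ZNF804A the levels were 2.36 times as high with AZD2811 (log2 difference 0.50, 95% interval 0.05 to 0.96, adjusted p = 0.992 by limma). That gene averaged 0.751 scaled FPKM in pRB- cells and passed the filter on low values through its pRB+ libraries, so little is read from this value. The same holds for TMEM88, which averaged 0.959 there and had about 6 fragments in pRB- AZD2811 replicate 1. The median and the counts of the 8 in pRB- cells include both genes. For MIR503HG the ratio was 2.06, with an interval of -0.04 to 1.37 on the log2 scale, and for TRAK2 it was 1.43, with an interval of -0.04 to 0.84. In 5 of 8, YAE1D1, TAS1R3, MIR503HG, TRAK2 and ZNF804A, both AZD2811 libraries lay above both controls, an arrangement found in 12.8% of all genes. Without pRB- AZD2811 replicate 1, the pRB- library rich in RMRP, a single AZD2811 library is left, and the values were 0.77 for NCOA5, 0.67 for ZNF804A, 0.71 for MIR503HG, 0.52 for TRAK2, 0.42 for MBTD1, 0.34 for TMEM88, 0.33 for YAE1D1 and 0.31 for TAS1R3, with a median of 0.47. Since pRB- control replicate 1 was the lowest library for all 8 and pRB- AZD2811 replicate 2 the highest, the 8 are not independent readings of this difference.

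In pRB+ cells the differences ran from -0.07 for MIR503HG to 0.37 for TMEM88, with a median of 0.14 and 7 of 8 above 0. One gene of 12013 was called (0.00832%), a small nucleolar RNA that fell, and 82 had an unadjusted p under 0.05; every member had an adjusted p of 1 (limma). TMEM88 had the largest value, with an interval of -0.16 to 0.90, and was the only member with both AZD2811 libraries above both controls, which held for 7.14% of all genes. NCOA5 differed by 0.12 with an interval of -0.54 to 0.77. In the libraries low in RMRP, which leave 1 pRB+ library per treatment, 6 of the 7 positive values turned negative, TAS1R3 to -0.60, and TMEM88 stood at 0.01.

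Over both states together the differences ran from 0.13 for MBTD1 to 0.35 for ZNF804A, 8 of 8 above 0 with a median of 0.27, and the smallest adjusted p over the members was 0.965 (limma, additive fit). None of the 12013 genes was called (0%), and 426 had an unadjusted p under 0.05. The interaction, the AZD2811 difference in pRB+ less that in pRB- cells, was below 0 in 7 of 8, from -0.73 for MIR503HG (95% interval -1.74 to 0.27) to 0.23 for TMEM88 (-0.52 to 0.98), and every adjusted p was 1.00 (limma). By this test 2 of 12013 genes were called (0.0166%), both microRNA genes, and 77 had an unadjusted p under 0.05. The intervals leave room for differences in response between the states of either sign.

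**Figure D4:**
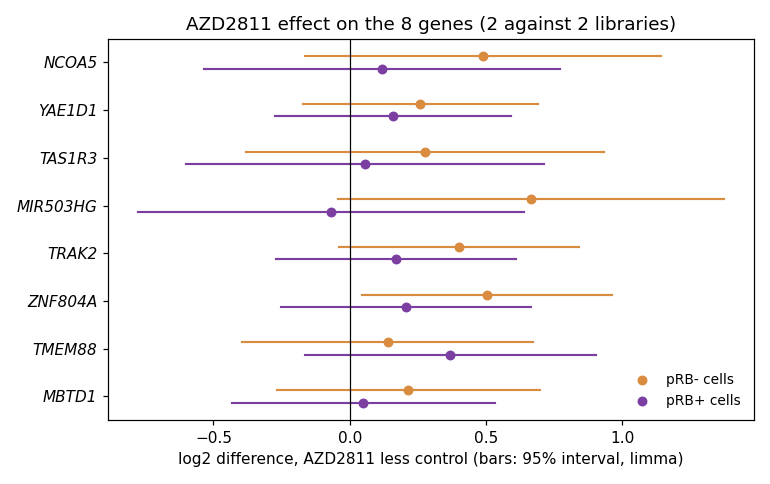
Log2 difference between AZD2811 and control libraries for each of the 8 genes in pRB- and in pRB+ cells (points; bars, 95% intervals from limma; 2 against 2 libraries). All 8 pRB- points lie above 0, from 0.14 to 0.66, and the interval of ZNF804A in pRB- cells is the only one that does not reach 0. ZNF804A and TMEM88 averaged 0.751 and 0.959 scaled FPKM in pRB- cells and passed the filter on low values through their pRB+ libraries.

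Relatives and partners of the 8 genes did not move as a block with pRB. The lists leave out the 8 genes themselves, and the calls below are those of the pRB comparison by limma. Over all genes tested 5.34% were called higher and 5.81% lower in that comparison. Among 10 nuclear receptor coregulators related to NCOA5 none rose and 1 fell, PNRC2, an adaptor in messenger RNA decay as well as a coactivator, from 97.6 ± 6.62 to 80.2 ± 3.64 scaled FPKM (log2 difference -0.28 ± 0.05, adjusted p = 0.0266). The other NCOA genes had differences between -0.08 for NCOA3 and 0.17 for NCOA4, and the list's median was 0.07.

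Of 17 other subunits of NuA4/TIP60, the complex of MBTD1, none rose and 2 fell, with a median of -0.10. KAT5, its catalytic acetyltransferase, fell from 19.1 ± 0.659 to 15.6 ± 0.781 (-0.28 ± 0.05, adjusted p = 0.0269 by limma), and BRD8, a bromodomain subunit, fell by 0.19 on the log2 scale (adjusted p = 0.0405). Of 7 tested genes listed as relatives of MBTD1, SCML1, which encodes a Polycomb-related protein, fell (-0.28, adjusted p = 0.0357 by limma). The others did not pass, L3MBTL2 having the largest positive value at 0.34 (adjusted p = 0.0771 by limma). The direction of the difference in MBTD1 was fixed by its choice. For ZNF804A, the paralog GPATCH8 differed by -0.05 and ZNF804B was near 0 in every library.

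For TRAK2, the paralog TRAK1 stood at 12.2 ± 0.491 with pRB and 12.3 ± 0.725 without it. Of 11 tested genes of mitochondrial transport, 2 rose and none fell, with a median of -0.01: KIF5C, a kinesin heavy chain of neurons, from 11.1 ± 0.614 to 13.2 ± 0.488 (0.23 ± 0.05, adjusted p = 0.0377 by limma), and SYBU, a kinesin adaptor, by 0.32 (adjusted p = 0.0489). RHOT1 and RHOT2, the outer membrane GTPases that hold TRAK proteins on mitochondria, differed by -0.21 and -0.01 and did not pass.

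None of 11 tested genes of cytosolic iron-sulfur assembly passed in either direction, with a median of -0.04. The direct partners of YAE1 were among them: ORAOV1, which encodes LTO1, differed by 0.23 (adjusted p = 0.141 by limma) and ABCE1 by 0.07 (adjusted p = 0.593). The largest value was that of NDOR1, an electron donor of the pathway, at 0.41 (adjusted p = 0.0572).

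The taste pathway was mostly silent. TAS1R2 and the taste G protein gene GNAT3 were listed at 0 in all libraries, and TAS1R1, the umami partner of TAS1R3, had means of 0.0133 with pRB and 0.0206 without it. TAS1R3 was therefore measured without either of its known receptor partners above those levels. Only 2 of 9 others reached the filter: GNB3, a G protein beta subunit, rose from 14.1 ± 2.78 to 23.0 ± 4.12 (0.67 ± 0.15, adjusted p = 0.0370 by limma), and ITPR3, a calcium channel used in many tissues, differed by -0.05.

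For TMEM88, 17 genes of Wnt signalling around Dishevelled were tested, of which none rose and 1 fell, with a median of -0.09. DACT1, another Dishevelled-binding protein, fell from 8.51 ± 1.06 to 5.95 ± 0.472 (-0.45 ± 0.08, adjusted p = 0.0277 by limma). The Dishevelled genes themselves did not pass, DVL1 at -0.11, DVL2 at -0.18 and DVL3 at 0.18, nor did AXIN2, a common Wnt target, at -0.15. The relative TMEM88B had means of 0.212 with pRB and 0.373 without it. With AZD2811, no gene of the 9 lists was called in either state.

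**Figure D5:**
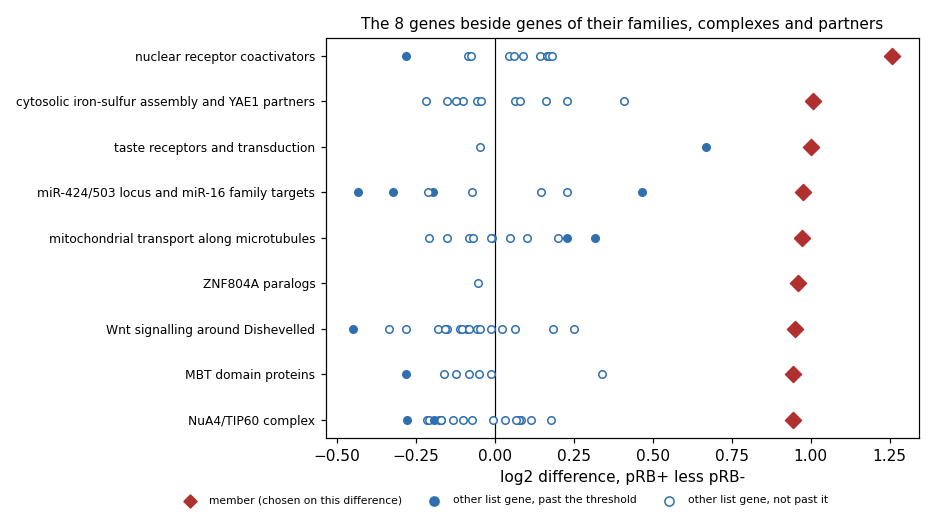
Log2 difference between pRB+ and pRB- libraries for the tested genes of the 9 lists of relatives and partners, with the member each list belongs to (filled circles, past the threshold; open, not past it); microRNA genes are left out of the plot. The members lie at 0.94 to 1.26, to the right of the other genes plotted, which their choice as the largest rises largely fixed. MIR450A2, which is not plotted, had a larger difference than MIR503HG, at 1.17 ± 0.97 (SE), from a single library above 0.

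Neighbouring genes, by their order in the RefSeq annotation, were looked up for all 8. Of 20 nearest or overlapping genes 10 were tested, 2 rose and 1 fell, against 5.34% called higher and 5.81% called lower over all genes tested. GLTPD1, a lipid transfer protein gene beside TAS1R3, rose from 7.73 ± 0.777 to 10.8 ± 1.59 scaled FPKM (0.43 ± 0.09, adjusted p = 0.0344 by limma). KDM6B, the histone H3 lysine demethylase gene beside TMEM88, rose from 11.9 ± 1.37 to 15.5 ± 0.889 (0.36 ± 0.08, adjusted p = 0.0332), while NAA38 on its other side fell by 0.21 (adjusted p = 0.0266). DVL1, which overlaps TAS1R3 in the annotation, differed by -0.11 (adjusted p = 0.408), and UTP18, which overlaps MBTD1, by 0.13 (adjusted p = 0.450). Whether reads were assigned by strand is not given in the sources used here, so reads of TAS1R3 and DVL1, and of MBTD1 and UTP18, may not be fully separated; the overlapping partners are the more abundant ones, at 43.1 and 35.9 scaled FPKM in pRB+ cells.

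Promoter windows were found for 7 of the 8 genes in the RefSeq table (300 bases around the start, GRCh38.p14), TMEM88 being the one without an entry. E2F sites were searched as TTTCCCGC, TTTCGCGC, TTTGCCGC and TTTGGCGC on both strands. None of the 7 windows held one, against 5.5% of 9375 windows of tested genes. CHR letters (TTTGAA, both strands) were in 1 of 7, MIR503HG, against 10.0%, and CCAAT boxes (CCAAT, both strands) in 3 of 7, TRAK2, ZNF804A and MBTD1, against 36.9%. The 3 motifs share no overlapping matches in these windows. Median GC content was 65.3% in the 7 windows and 65.7% in all, with MIR503HG the lowest at 52.3% and ZNF804A the highest at 72.3%. The windows of TRAK2 (chr2:201451409-201451708, minus strand) and MBTD1 (chr17:51260000-51260299, minus strand) are printed as examples of a window with 1 and with 2 CCAAT boxes, which are in capitals.
TRAK2: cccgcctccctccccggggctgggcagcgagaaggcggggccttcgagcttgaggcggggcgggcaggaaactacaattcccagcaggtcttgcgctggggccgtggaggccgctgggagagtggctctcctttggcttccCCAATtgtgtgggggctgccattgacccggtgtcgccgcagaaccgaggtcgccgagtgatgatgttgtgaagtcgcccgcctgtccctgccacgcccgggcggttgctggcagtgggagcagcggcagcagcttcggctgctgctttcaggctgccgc
MBTD1: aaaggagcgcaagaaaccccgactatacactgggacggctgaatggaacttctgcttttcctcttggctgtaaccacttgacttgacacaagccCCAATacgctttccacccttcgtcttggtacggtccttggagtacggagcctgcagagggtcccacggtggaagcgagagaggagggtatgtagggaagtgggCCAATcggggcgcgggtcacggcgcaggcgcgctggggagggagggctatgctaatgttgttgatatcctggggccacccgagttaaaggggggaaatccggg
Counted from the gene start, the TRAK2 box begins at base -109 and those of MBTD1 at bases -156 and -53. These matches describe the letters of the windows; binding was not measured in the values used here.

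The genes whose levels followed each member most closely over the 8 libraries were mostly others that were called higher with pRB. That was largely fixed by the choice of members whose pRB states do not overlap, so nothing is read from it. Likeness was Pearson's r of the log2 values among 11577 genes outside the set, given as a description, since pRB+ and pRB- libraries form separate clusters. NCOA5 and MBTD1 shared a closest gene, RRP15, a ribosomal RNA processing factor (r = 0.9948 and 0.9955), and E2F3 came second for NCOA5 (0.9946). TRAK2 lay closest to NUP54, a nucleoporin (0.9969), TAS1R3 to PCGF3, a Polycomb group protein (0.9968), and YAE1D1 to ZNF480 (0.9946). For ZNF804A it was FBXO10 (0.9935), for TMEM88 PACS2 (0.9926) and for MIR503HG the splicing factor gene SUGP1 (0.9917). These relatives had smaller differences than the members, for example 0.53 for RRP15 and 0.27 for PCGF3 on the log2 scale. The members were chosen as the largest rises, so this order was largely fixed. Between the 8 members r ran from 0.8829 to 0.9935, and with RB1 from 0.8397 to 0.9466.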

How the data were processed

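The authors deposited 1 table of FPKM values, 1 per gene and library, for 8 libraries of stranded total RNA. The name of the deposited sheet speaks of counts, but its values are not whole and move in steps that depend on gene length, so they were read as the FPKM that Cufflinks writes. The submitters' processing notes list STAR 2.5.1b, Cufflinks 2.2.1 and hg19 without saying what each was used for; the annotation and the use of strand are not given in the sources used here. Of 25365 rows, 28 whose names had become dates were left out. The deposited FPKM of each library were rescaled by its average log ratio to the geometric mean of the 8 libraries, after trimming 30% of ratios and 5% of levels from both ends, which sets aside the share of fragments taken by small RNAs. Tests covered the 12013 genes whose scaled FPKM averaged 1 or more, among them 277 small RNA genes. Tests used limma 3.58.1 in R 4.3.3 on log2 of scaled FPKM plus 1, with an intensity trend and Benjamini-Hochberg adjustment over all genes tested at 0.05: a fit of 4 group means for AZD2811 within each pRB state and the interaction, and an additive fit for AZD2811 over both states and for pRB. Fold changes on that scale understate those of low genes. The replicates are called biological, with no word on separate cultures, so p-values speak only of the spread among these 8 libraries, which may be technical.

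The 8 genes, the lists and the additive fit were chosen with earlier results of these data known. The lists hold relatives and partners of each member; list genes, neighbours and the 2 genes of highest r per member are named by rule. Library type was set from the data, at RMRP above 1000 scaled FPKM. Depth and fragments per gene were estimated from steps in the FPKM of single-transcript genes longer than 1500 nucleotides (GENCODE 29, length less 200), so counting errors are approximate and cover counting only. Of 25337 names 24050 matched RefSeq genes; sequences are RefSeq's in GRCh38.p14, while no coordinates of the deposited build are given. Alternatives were the FPKM without scaling, median-ratio scaling, each library left out, the 5 libraries low in RMRP, a library type term, no small RNA genes, no filter on low genes, 0.1 as the pseudocount, a block for replicates, fits of the compared groups alone or of group means, and a minimum log2 change of 1. The fits were also run on simulated data, the outcome of which is not given here, and no result rests on it. Figures used Python 3.11.15 and matplotlib 3.10.9.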

Additional observations from a re-analysis of the deposited data

How the results depend on the processing

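With FPKM as deposited, the median of all genes shifted to -0.64 for AZD2811 in pRB- cells, -0.05 in pRB+ cells, -0.34 over both and 0.60 for the interaction, and 143, 79, 143 and 108 genes were called, against 4, 1, 0 and 2 with scaling. In that setting the pRB- values of YAE1D1 (-0.37), TAS1R3 (-0.19), TRAK2 (-0.12), TMEM88 (-0.12) and MBTD1 (-0.29) and the pRB+ value of TAS1R3 (-0.012) turned negative, though all 8 members in pRB- cells and 7 of 8 in pRB+ cells stayed above the shifted median. The 5 libraries low in RMRP hold 2 pRB- controls and 1 library of each other group, so the spread in the fit of group means comes from those 2 controls alone and each lone library is assumed to vary like them; 30, 39, 6 and 46 genes were called there, and in pRB+ cells NCOA5 (-0.23), YAE1D1 (-0.21), TAS1R3 (-0.60), TRAK2 (-0.15), ZNF804A (-0.043) and MBTD1 (-0.15) turned negative. The calls for AZD2811 in pRB- cells numbered 2 when low genes were kept, 1 when the fit held just the groups compared and 0 without small RNA genes, those in pRB+ cells 0 in each of these and with a pseudocount of 0.1. The interaction had 1 call when low genes were kept, with a pseudocount of 0.1 or with a term for library type and 0 without small RNA genes, and AZD2811 over both states had 2 in a fit of 4 group means. The cause of these changes was not tested. Leaving out each library in turn, with the lone library of an arm assumed to vary like the other groups, gave 1 to 16 calls in pRB- cells, 0 to 12 in pRB+ cells, 0 to 0 over both states and 4 to 16 for the interaction. In pRB- cells MBTD1 then ran from -0.0092 (without pRB- control replicate 1) to 0.44, TMEM88 from -0.064 (without pRB- AZD2811 replicate 2) to 0.34, NCOA5 from 0.21 to 0.77, YAE1D1 from 0.14 to 0.38, TRAK2 from 0.25 to 0.55, ZNF804A from 0.34 to 0.67, MIR503HG from 0.52 to 0.80 and TAS1R3 from 0.24 to 0.31. NCOA5, YAE1D1 and TRAK2 were lowest without pRB- control replicate 1 and highest without pRB- control replicate 2. In pRB+ cells the ranges were -0.46 to 0.32 for MIR503HG, -0.065 to 0.30 for NCOA5, -0.052 to 0.37 for YAE1D1, -0.32 to 0.43 for TAS1R3, -0.039 to 0.38 for TRAK2, -0.0020 to 0.41 for ZNF804A, 0.10 to 0.64 for TMEM88 and -0.061 to 0.16 for MBTD1. The medians of the 8 over all settings ran from -0.12 to 0.50 in pRB- cells, -0.18 to 0.33 in pRB+ cells, 0.024 to 0.36 over both and -0.69 to 0.21 for the interaction.

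The pRB differences of the 8 members ran from 0.78 to 1.65 over the settings; their sign says nothing of stability, since the members were chosen for states that do not overlap. Their calls, which the choice fixed at 8, fell to 0 with FPKM as deposited, in the 5 libraries low in RMRP and in a fit of 4 group means, to 3 at a log2 change of at least 1, and ran from 0 to 8 as each library was left out. They were 0 without either pRB- control or without the first pRB- AZD2811, pRB+ control or pRB+ AZD2811 library.

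The replicate numbers were not taken to pair the libraries. Deviations of same-numbered libraries over all genes correlated at over 0.1 in 3 of 6 pairs of groups, from -0.569 to 0.732 (0.185 within pRB- and -0.327 within pRB+ cells). The value of 0.732 joined the AZD2811 groups, whose libraries rich in RMRP are both number 1. Against the pRB+ controls, where the rich library is number 2, these groups gave -0.569 and -0.327. Pairs with the pRB- controls, which hold no rich library, gave 0.185, 0.132 and 0.0808. Library type and pairing cannot be told apart here, so these correlations do not decide whether the libraries are paired. The 8 members did vary by number: replicate 2 was above replicate 1 in both treatments of pRB- cells for 8 of 8 (27.1% of all genes), and replicate 1 above replicate 2 in both treatments of pRB+ cells for 8 of 8 (31.5%). Between same-numbered libraries AZD2811 was above control in both pairs for 8 of 8 in pRB- cells (22.4% of all genes) and for 6 of 8 in pRB+ cells (17.9%). With a replicate block 2 genes were called for AZD2811 in pRB- cells, 0 in pRB+ cells and 1 for the interaction. A block within each pRB state, chosen after seeing the data, gave 1 and 0 calls. In pRB- cells 7 of 8 members then had an unadjusted p under 0.05, with adjusted p from 0.84 to 0.852 (limma). Without a block 1 of 8 had one. The share of all genes under 0.05 with this block is not given here. The 8 are not independent readings, with r of 0.8829 to 0.9935 between them, so nothing is read from the 7. Depth limits TMEM88 and MIR503HG most, with as few as 6 and 16 fragments in a library.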
